A study of Rattus norvegicus with 12 samples.

Results

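The enzymes that clear drugs, dietary chemicals and other foreign compounds were followed in colonic tissue of rats after neonatal maternal separation (NMS) and after treatment of separated rats with VSL#3, a mixture of probiotic bacteria. The genes were chosen by a rule on their names, and the rule was set with earlier results of these data known. They are all genes of the array called Cyp1 to Cyp4, Ugt1 or Ugt2, Gst with a class letter and a number, or Sult with a number. This gave 127 probes of 104 gene names among the 30367 probes and 26514 names on the array. Of these genes, 59 (73 probes) belong to phase I, the cytochromes P450 of families CYP1 to CYP4, and 45 (54 probes) to phase II, the UGT, GST and SULT enzymes.

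Phase I enzymes insert oxygen into lipophilic molecules, with electrons passed on by cytochrome P450 reductase. Phase II enzymes then attach a soluble group. UDP-glucuronosyltransferases (UGT) attach glucuronic acid, glutathione S-transferases (GST) attach glutathione, and cytosolic sulfotransferases (SULT) attach sulfate. In the gut these enzymes sit largely in the epithelium, where they meet food and the products of bacteria, and several of them also handle the body's own fatty acids, steroids and thyroid hormones. Many are switched on by receptors that sense foreign compounds, such as AHR, PXR (Nr1i2), CAR (Nr1i3) and NRF2 (Nfe2l2).

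Colon of male Wistar rats was collected at postnatal day 60, with 1 array and 1 dye (Cy3) per rat. Group C (rats C1 to C4) was normally handled and given placebo. Group M (M5 to M8) was taken from the dam each day for 180 min, starting on day 2 and ending on day 14, and given placebo. Group D (D9 to D12) was separated in the same way and received VSL#3 by daily gavage from day 3 to day 60. The labels give the VSL#3 dose as 18, whereas the paper states a slightly lower value in the same unit. For placebo in Groups C and M the labels give the same days, 3 to 60. All of the rats had also gone through colorectal distension. The study analysed 11 arrays, without D12 and with no reason given in the sources used here, so the group values below hold 4, 4 and 3 rats and the value of D12 is given beside them. Group C and Group M shared 1 slide, whereas Group D lay on another slide with its own scan. Slide and group therefore cannot be told apart in any comparison with Group D. The labels name litters nowhere, and p-values measure only the spread between these rats.

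A level is given here as log2 signal relative to the array, so that 0 is the 75th percentile of the signals of that array and 1 unit is a 2-fold difference. A probe was called well above background where the scanner software marked it so. The 75th percentile of the raw signals was 1434 to 1953 per array, no spot was saturated, and 75.5% to 77.5% of spots were well above background. The level of 1 probe is not set against that of another, because probes differ in how strongly they bind. In whole tissue, fewer cells of a type and less RNA per cell cannot be told apart.

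Not all members were measurable in this tissue. Of the 127 member probes, 66 exceeded background by that mark on all arrays, 25 on some and 36 on none. All 10 GST mu probes, the GST pi probe and the 3 UGT1 probes were measured on every array, as were 4 of 5 GST alpha probes, 8 of 9 probes of the other GST classes, 8 of 15 SULT probes, 9 of 17 CYP4 probes, 17 of 45 CYP2 probes, 4 of 8 CYP3 probes and 2 of 11 UGT2 probes. None of the 3 CYP1 probes was above background on any array. Cyp1a1 and Cyp1b1, both classical targets of AHR, had levels of -8.85 and -8.73 in Group C, which is background. Cyp2e1, which oxidises ethanol, and Sult2b1, which sulfates cholesterol, were also at background on all 12 arrays, as were 4 of the 8 Cyp2c genes and all 3 genes of the Sult2a group, which are known from liver. Of 10 marker genes of hepatocytes, 5 (Alb, Ttr, Fgb, Fga and Cps1) were above background on no array, but 3 were above it on every array. Ugt1a1 and Ugt2b35, which had been listed for description, have no probe of that name, although the accession of the probe named Ugt2b36 now belongs to Ugt2b35.

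The probes that carry the largest differences below are shown here, because each gene is known on the array only by its 60 bases and several of these families hold near-identical genes. Sequences are those of the array files in lower case, with positions on the rn4 build as the files give them. No gene model of that build was used here, so exon, intron and UTR are not stated.
Sult1a1, chr1:185829252-185829311, minus strand: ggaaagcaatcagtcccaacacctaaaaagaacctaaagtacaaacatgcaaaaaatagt
Sult1c2, chr9:997939-997998, plus strand: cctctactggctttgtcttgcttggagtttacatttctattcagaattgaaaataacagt
Cyp4f5, chr7:13133956-13134015, plus strand: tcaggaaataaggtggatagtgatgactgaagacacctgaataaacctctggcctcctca
Cyp2s1, brightest probe, chr1:81008468-81008527, minus strand: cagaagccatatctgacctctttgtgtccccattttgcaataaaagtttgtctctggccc
Gsta5, the first probe, chr9:20026897-20029435, plus strand: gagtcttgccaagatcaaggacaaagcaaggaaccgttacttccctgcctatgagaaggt
Gsta5, the second probe, chr9:20031594-20031653, plus strand: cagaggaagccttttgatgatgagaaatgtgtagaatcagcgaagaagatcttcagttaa
Cyp4a8, the first probe, chr5:135546881-135546940, minus strand: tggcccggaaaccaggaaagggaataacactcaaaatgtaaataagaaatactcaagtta
Cyp4a8, the second probe, chr5:135547750-135547809, minus strand: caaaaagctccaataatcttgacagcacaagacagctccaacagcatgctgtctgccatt

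Probes of neighbouring genes can share most of their bases. In the pair below the capitals mark the bases that differ within the stretch of 58 bases where both can be aligned, of which 56 are the same.
Cyp2d5, chr7:120760436-120760495, minus strand: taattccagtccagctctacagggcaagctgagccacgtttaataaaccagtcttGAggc
Cyp2d1, chr7:120769703-120769762, minus strand: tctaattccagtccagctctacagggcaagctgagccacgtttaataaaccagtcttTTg
Their log2 signals differed by at most 0.12 on any array, so Cyp2d1 and Cyp2d5, which oxidise many basic drugs, cannot be told apart here. Of all pairs of member probes, 6 shared at least 40 aligned bases, among them pairs within 1 gene (Sult1b1, Gstm3 and Cyp2b12). Cyp3a18 and Cyp3a62 shared 41 of 52, with a gap of up to 6.51 log2 units on an array. Because probes differ in how strongly they bind, that gap is not read as a difference between the genes.

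In Group M vs Group C, which asks what NMS did to these enzymes, no member passed the test across all probes. By limma, with a 2-fold difference and an adjusted p no higher than 0.05, 0 of 127 probes were called, against 0.165% of all probes on the array. The smallest adjusted p among the members was 0.0867. At an unadjusted p of at most 0.05, a count chosen after the data were seen, 33 members were lower in Group M, where 12.6% of all probes were, and 3 were higher, where 10% of all probes were. The 33 are 26% of the members. They held 16 of the 73 phase I probes (21.9%) and 17 of the 54 phase II probes (31.5%), and the 3 that were higher are the 3 probes of Cyp2s1. Among probes measured on every array, 27 of 66 members were lower and 2 higher, against 16.3% and 12.4% of all such probes. By the methods' test (analysis of variance and Tukey without adjustment at a threshold of 0.05, plus a 2-fold difference) 3 members were lower, namely Cyp4f5, Sult1a1 and Sult1c2, and 0 higher, against 0.935% and 1.37% of all probes.

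By family, the probes lower in Group M at that unadjusted threshold were 4 of 5 for GST alpha, 5 of 10 for GST mu, 8 of 17 for CYP4, 5 of 15 for SULT, 3 of 9 for the other GST classes, 7 of 45 for CYP2 and 1 of 8 for CYP3. For CYP1, UGT1, UGT2 and GST pi there were 0. Over all probes on the array 12.6% were lower at this threshold, and the shares of CYP2 (15.6%) and CYP3 (12.5%) were near that. Over all members of a phase, the median log2 difference of Group M vs Group C was -0.04 in phase I and -0.20 in phase II, beside -0.01 over all probes on the array. These medians include the probes at background, whose values cannot be read as a level of the gene. Over the 30 phase I and 36 phase II probes measured on every array the medians were -0.50 and -0.40, beside -0.02 over all 20305 such probes. Of those members, 22 of 30 and 31 of 36 lay below 0, beside 10782 of all 20305 such probes. The difference between the medians of both phases was not tested.

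**Figure D1:**
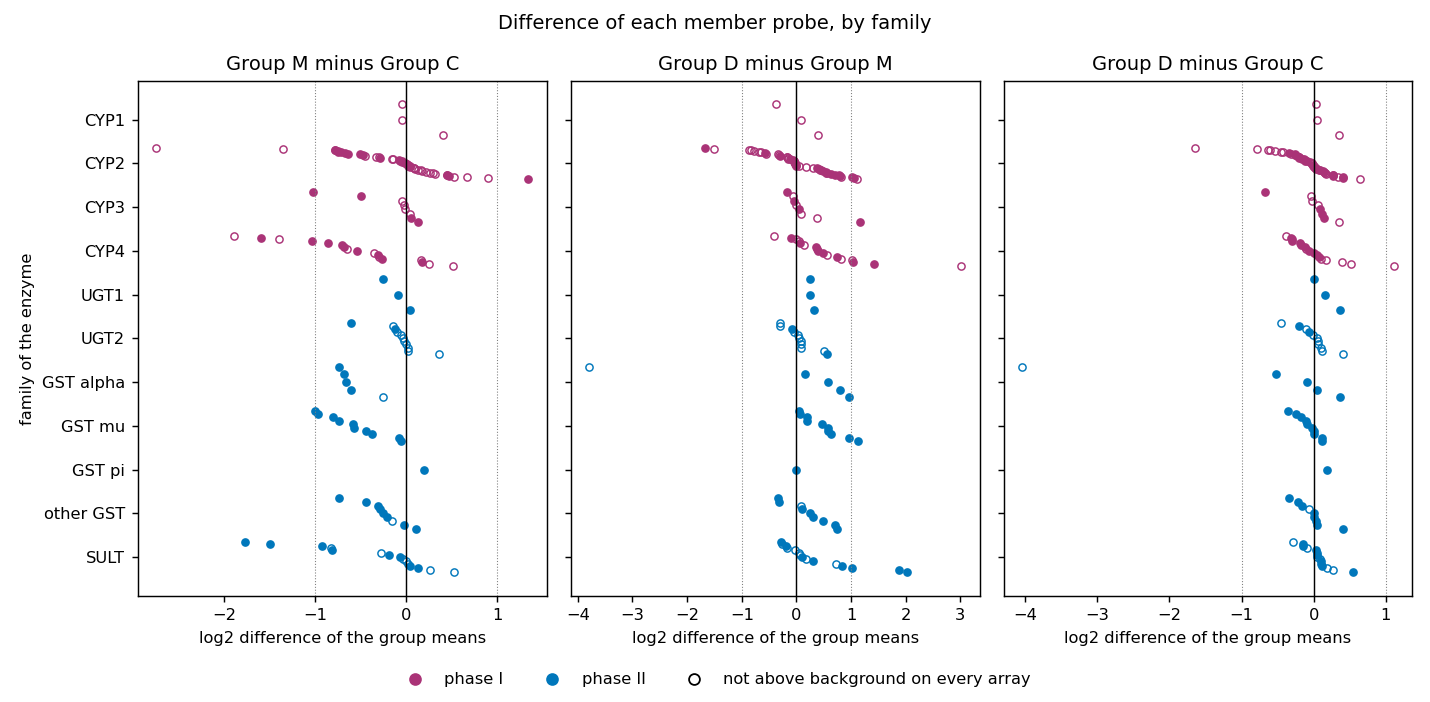
Log2 difference of the group means (horizontal axes) for each of the 127 member probes, by enzyme family (vertical axis), in the 3 comparisons. Filled points were well above background on every array, open points were not, and dotted lines mark a 2-fold difference. In Group M minus Group C most filled points of CYP4, GST alpha, GST mu and SULT lie left of 0, in Group D minus Group M right of 0, and in Group D minus Group C the filled points lie between -0.67 and 0.54.

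In Group D vs Group M, which asks what VSL#3 did in separated rats, again 0 of 127 probes were called by limma, against 0.128% of all probes, and the smallest adjusted p was 0.066. At the unadjusted threshold 28 members were higher in Group D and 5 lower, against 11.3% and 10.3% of all probes. Of those measured on every array, 23 of 66 were higher and 2 lower, against 14.2% and 12.4% of all such probes. The methods' test took 4 probes as higher (Sult1a1, both probes of Cyp2j3 and the second probe of Cyp4a8) and 3 as lower (2 probes of Cyp2s1 and the second probe of Gsta5), against 1.09% and 1.57% of all probes. The medians over the members measured on every array were 0.39 in phase I and 0.31 in phase II, beside 0.01 over all such probes. Both comparisons use the rats of Group M, so a low value there moves them in opposite directions, and no agreement between them is read here.

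The groups themselves can be read rat by rat. In Group M vs Group C, 9 member probes had all 4 values of Group M below all 4 of Group C and 0 had all above, against 5.04% and 4.18% of all probes. In Group D vs Group M, 20 members had all 3 values of Group D above all 4 of Group M and 4 had all below, against 8.46% and 7.38% of all probes.

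Among the phase I enzymes, the CYP4 family, which hydroxylates fatty acids and eicosanoids, held the member with the largest difference between Groups M and C among those measured on every array. Cyp4f5, of the subfamily that inactivates leukotrienes, had a level of 2.98, 2.02, 3.26 and 3.00 in C1 to C4, of 1.53, 2.28, 0.13 and 0.95 in M5 to M8, and of 2.20, 2.91 and 2.78 in D9 to D11, with 1.06 in D12. M7 and M8 were far below every rat of Group C, while M6 was above C2. The log2 difference between Groups M and C was -1.59 (SE 0.43, adjusted p = 0.106 by limma), and that between Groups D and M was 1.41 (SE 0.46, adjusted p = 0.137). Cyp4f17 was at -1.68 ± 0.20 in Group C, -2.55 ± 0.46 in Group M and -1.80 ± 0.13 in Group D (mean ± SD), and Groups C and M did not overlap. Its difference was -0.86 (SE 0.21, adjusted p = 0.0977).

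Cyp4b1, which activates several protoxicants, showed the same order. It was at -1.38, -2.56, -1.16 and -1.19 in Group C, at -3.00, -2.02, -2.68 and -2.73 in Group M, and at -1.65, -1 and -2.06 in D9 to D11, with -2.26 in D12. C2 lay with Group M, so that these groups overlapped. Its differences were -1.03 (SE 0.35) and 1.04 (SE 0.38). Both probes of Cyp4v3, a fatty acid hydroxylase, were lower in all rats of Group M than in all of Group C, by -0.68 and -0.70. Cyp4f1 differed by -1.39 but with an SE of 0.81, since C2 at -6.86 was as low as M8 at -6.86 and both were not above background. Cyp4f18 was at 0.17 (SE 0.25), the only CYP4 probe measured on every array to lie above 0.

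The CYP2 family holds epoxygenases of arachidonic acid, such as the CYP2J enzymes, and the CYP2D enzymes. The 2 probes of Cyp2j3 differed by -0.75 (SE 0.29) and -0.78 (SE 0.25) between Groups M and C. Between Groups D and M they gave 1.01 and 1.05, with adjusted p values of 0.124 and 0.098 by limma. The brighter of them was at 0.28, -0.13, 0.08 and 0.85 in Group C, -0.42, 0.15, -1.01 and -0.62 in Group M, and 0.09, 0.59 and 0.93 in D9 to D11, so that M6 stood within the range of Group C. D12 was at -0.58. Cyp2j4 differed by -0.47 (SE 0.26) and 0.54 (SE 0.28). Cyp2d4 was lower by both of its probes, at -0.71 and -0.78, and the signal shared by Cyp2d1 and Cyp2d5 differed by -0.64 and -0.67. Cyp2d2 differed by -1.35 (SE 0.47), but only 2 of the 4 rats of Group M and all 4 of Group C were above background. Cyp2t1 and Cyp2w1 gave positive values, each at 0.45, with an SE of 0.24 and 0.35 and adjusted p values of 0.299 and 0.475. For Cyp2b3 one probe gave 0.09 and the other -0.30 (SE 0.21 and 0.16), and neither was above background on all arrays.

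Cyp2s1, a P450 of epithelia outside the liver, had the opposite sign to most measured members. Its brightest probe was at -3.44, -1.84, -3.71 and -2.96 in Group C, at -0.92, -2.97, -1.48 and -1.21 in Group M and at -3.41, -3.04 and -3.52 in D9 to D11. M6 lay among the rats of Group C, C2 lay within the range of Group M, and D12 at -0.23 was the highest of all 12. The difference between Groups M and C was 1.34 (SE 0.49, adjusted p = 0.151 by limma). That between Groups D and M was -1.68 (SE 0.52, adjusted p = 0.127), and -0.90 with D12 included. The other 2 probes of the gene had the same signs, with 0.90 and 0.47 in the first comparison and -1.50 and -0.58 in the second. Cyp2u1 in Group D vs Group M was at 0.70 (SE 0.45).

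In the CYP3 family, whose enzymes oxidise steroids and a wide range of drugs, Cyp3a9 and Cyp3a62 had unlike values. Cyp3a9 was at 3.82 ± 0.20, 3.87 ± 0.23 and 3.93 ± 0.30 in Groups C, M and D, with differences of 0.05 (SE 0.16) and 0.05 (SE 0.18). Cyp3a62 was at 0.24, -0.07, 0.31 and 1.29 in Group C, -0.29, 0.38, -1.51 and -0.88 in Group M and -0.02, 1.03 and 0.75 in D9 to D11, with D12 at -0.68. Its differences were -1.02 (SE 0.43, adjusted p = 0.194) and 1.16 (SE 0.46, adjusted p = 0.185), and M6 again stood among the rats of Group C. Cyp3a18 was at -0.50 (SE 0.40) in Group M vs Group C and at -0.67 (SE 0.43) in Group D vs Group C.

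**Figure D2:**
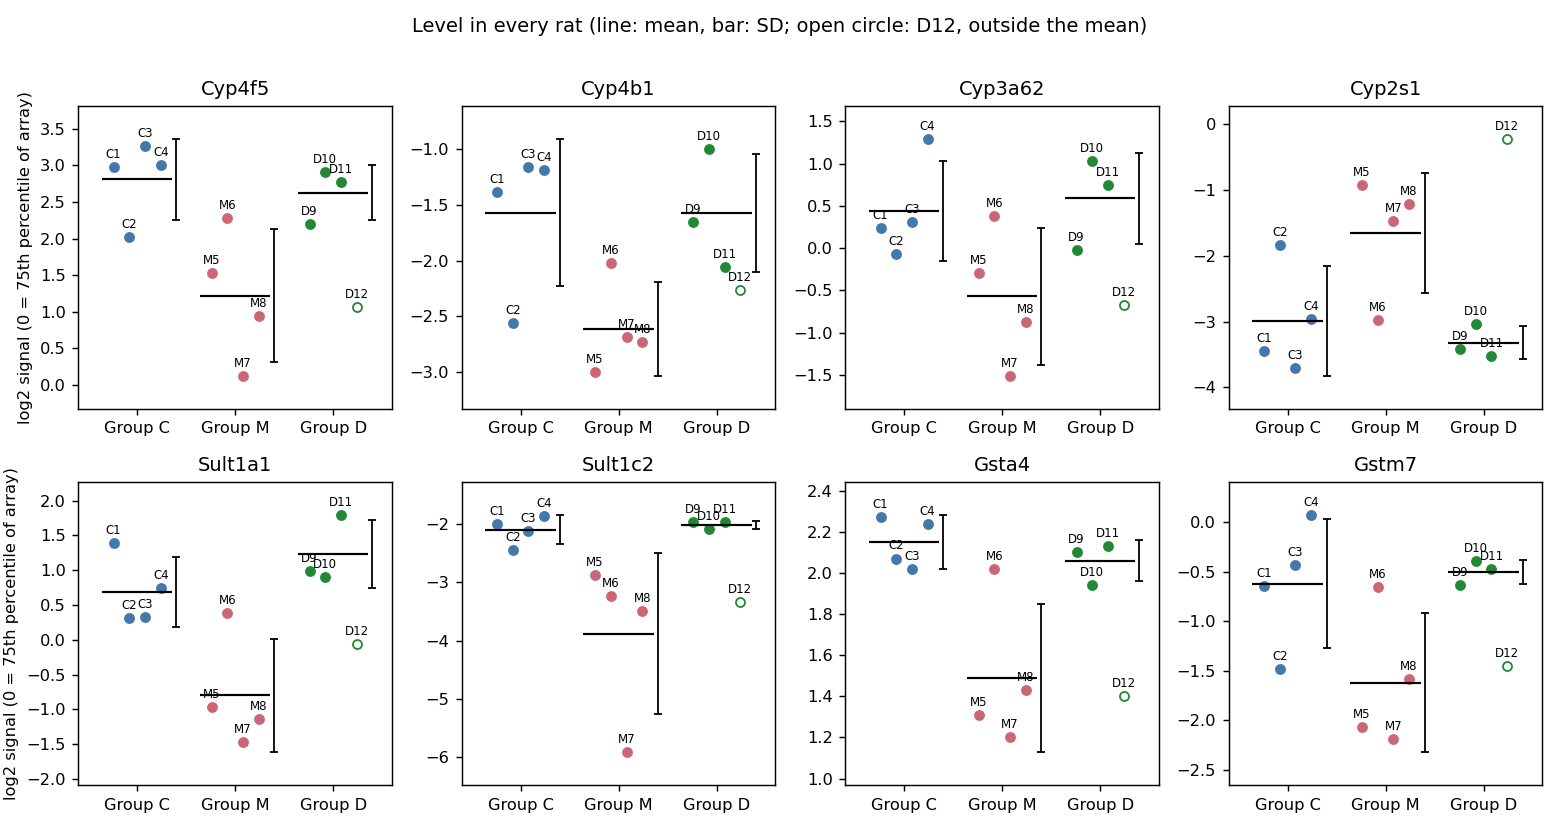
Log2 signal (vertical axes, 0 is the 75th percentile of the array) of 8 members in each rat of Groups C, M and D, with the group mean as a line and the SD as a bar. D12, the open circle, is outside the mean of Group D. Most of the 8 were named for large differences, so the panels do not stand for all members. In 7 of the 8 panels the mean of Group M is the lowest, and Cyp2s1 is the exception. M6 lies nearest to Group C within Group M for all but Sult1c2. D12 lies outside the range of D9 to D11 on the side of Group M, only just so for Cyp4b1.

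Among the phase II probes measured on every array, the largest differences of Group M vs Group C were those of sulfotransferases. Sult1a1, which sulfates phenols, was at 1.39, 0.32, 0.33 and 0.74 in Group C, at -0.97, 0.38, -1.47 and -1.14 in Group M and at 0.99, 0.91 and 1.79 in D9 to D11, with D12 at -0.06. M5, M7 and M8 were below every rat of Group C, whereas M6 was above C2 and C3. The difference between Groups M and C was -1.49 (SE 0.40, adjusted p = 0.107 by limma). That between Groups D and M was 2.03 (SE 0.44, adjusted p = 0.0812), which is 4.09-fold. Sult1c2 was at -2, -2.44, -2.12 and -1.86 in Group C, at -2.87, -3.23, -5.91 and -3.50 in Group M and at -1.97, -2.09 and -1.97 in D9 to D11. All 4 rats of Group M were below all of Group C, M7 by far, and D12 at -3.34 lay within Group M. Its differences were -1.77 (SE 0.54, adjusted p = 0.121) and 1.87 (SE 0.59, adjusted p = 0.128).

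The related Sult1c2a was lower by both of its probes, at -0.92 and -0.81, and higher in Group D than in Group M by 1.02 and 0.83. Sult1b1, which sulfates thyroid hormones and small phenols in the gut, had other values. It was at 3.11 ± 0.19, 3.24 ± 0.31 and 2.97 ± 0.26, with differences of 0.13 (SE 0.18) and -0.28 (SE 0.19), and its second probe, which overlaps the brighter one by 50 bases, gave 0.04 and -0.20.

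The GST alpha class detoxifies products of lipid peroxidation. Gsta4, which conjugates 4-hydroxynonenal, was at 2.27, 2.07, 2.02 and 2.24 in Group C, at 1.31, 2.02, 1.2 and 1.43 in Group M and at 2.10, 1.94 and 2.13 in D9 to D11, with D12 at 1.40. M5, M7 and M8 stood well below all other rats of the fit, and M6 only just below C3. Its difference between Groups M and C was -0.66 (SE 0.17, adjusted p = 0.0998) and that between Groups D and M was 0.57 (SE 0.18, adjusted p = 0.128). The probe named Gsta3, whose accession is now that of Gsta1, was at -1.24 ± 0.21, -1.97 ± 0.22 and -1.19 ± 0.21. It gave -0.74 (SE 0.15, adjusted p = 0.0867), the smallest adjusted p of the members in this comparison. Gsta2 was at -0.95 ± 0.34, -1.56 ± 0.25 and -0.58 ± 0.21, a difference of 0.97 (SE 0.20, adjusted p = 0.0787) in Group D vs Group M.

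In the GST mu class, which acts on epoxides among others, 10 of 10 probes lay below 0 in Group M vs Group C, from -1 to -0.06, and 10 of 10 above 0 in Group D vs Group M, from 0.04 to 1.13. Of all 20305 probes measured on every array, 10782 lay below 0 in the first comparison and 10517 above 0 in the second. The 10 probes stand for 8 genes and are not independent, as the 2 of Gstm3 share 58 of 60 bases. Gstm7 was at -0.64, -1.48, -0.43 and 0.07 in Group C, at -2.07, -0.65, -2.19 and -1.58 in Group M and at -0.63, -0.39 and -0.47 in D9 to D11. Its differences were -1 (SE 0.37, adjusted p = 0.158) and 1.13 (SE 0.40, adjusted p = 0.157), and M6 stood inside Group C while C2 and D12 (-1.45) stood near Group M. Gstm5 differed by -0.58 (SE 0.16) and Gstm2 by -0.57 (SE 0.18). Gstm1 differed by -0.06 (SE 0.34). Gstm4 gave -0.44 and -0.37 by its probes and, for Group D vs Group C, -0.36 (SE 0.20) by the brighter of them.

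The remaining GST classes gave differences between Groups M and C from -0.74 to 0.20. The lowest was that of Gstt2 (SE 0.33, adjusted p = 0.217 by limma), which was at 0.75 (SE 0.36) between Groups D and M and was named after its values were seen. Gstp1 was at 2.61 ± 0.10, 2.81 ± 0.34 and 2.80 ± 0.19, with 0.20 (SE 0.16) in Group M vs Group C. Gsto1, which reduces dehydroascorbate, was at -0.29 (SE 0.12) and 0.30 (SE 0.13), and Gstt1, which handles small halogenated compounds, at -0.44 (SE 0.19) and 0.48 (SE 0.20). Gstt3 differed by 0.11 (SE 0.23) and -0.33 (SE 0.24). Gsto2 in Group D vs Group M was at 0.71 (SE 0.19, adjusted p = 0.101).

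The glucuronosyltransferases measured on every array were few, and their differences lay within the spread between rats. Ugt1a6, which conjugates planar phenols, was at 4.15 ± 0.23, 4.06 ± 0.32 and 4.30 ± 0.10, with differences of -0.09 (SE 0.17) and 0.25 (SE 0.18). Ugt2b34, whose accession is now that of Ugt2b10, was at -0.14 ± 0.46, -0.75 ± 0.76 and -0.19 ± 0.31, with -0.61 (SE 0.36) and 0.56 (SE 0.39). Ugt2b1 was above background on 9 of 12 arrays and differed by -0.10 (SE 0.38).

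**Figure D3:**
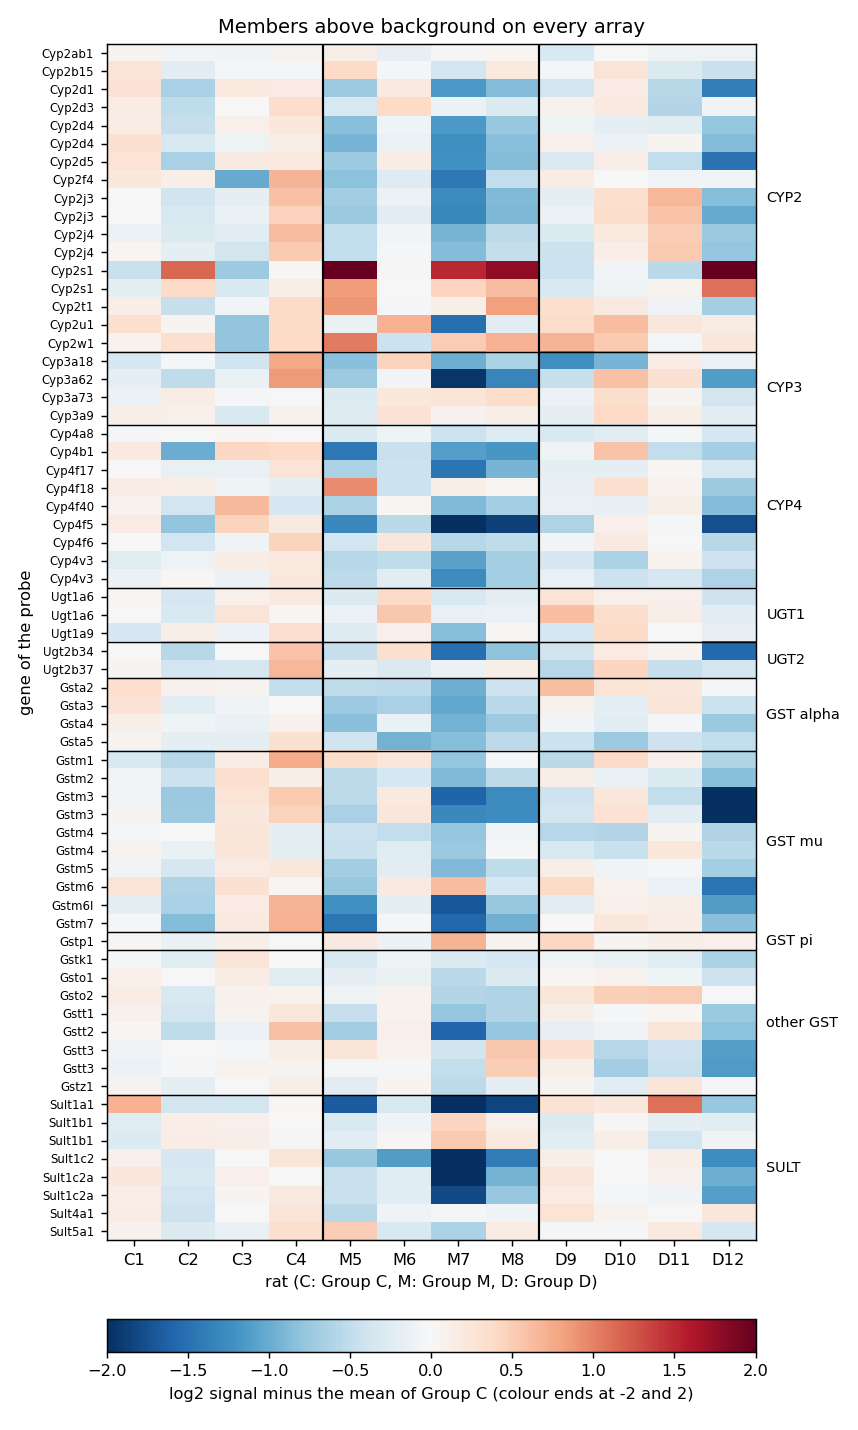
Log2 signal minus the mean of Group C, as colour from -2 to 2 (values beyond are drawn at the end of the scale), for the 66 member probes above background on every array (rows, by family) in the 12 rats (columns). M5, M7, M8 and D12 are mostly blue, M6 and D9 to D11 are mostly pale, C2 is slightly blue, and the row of Cyp2s1 with the deepest red shows the opposite.

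For Gsta5 and Cyp4a8 the probes of the gene gave different patterns. The name Gsta5 on the array goes with an accession that now belongs to Gsta3. Its first probe, whose 60 bases span 2539 bases of the genome and so are not contiguous there, was at -2.17 ± 0.23, -2.85 ± 0.26 and -2.69 ± 0.17. The second probe, which starts 4697 bases further on, was at -4.61, -3.87, -5.18 and -3.19 in Group C, at -3.48, -6.10, -4.51 and -3.73 in Group M and at -8.62, -8.83 and -7.29 in D9 to D11. All 8 rats of Groups C and M were above background with it and none of these 3 rats of Group D was, so the signal was at least 9.83-fold higher in Group C than in Group D and at least 8.29-fold higher in Group M. The adjusted p values by limma were 0.228 and 0.066. D12, on the same slide as D9 to D11, was at -4.40 and above background. With D12 in the fit the log2 difference of Group D vs Group C was -3.07 (adjusted p = 0.552). By the first probe the same comparison gave -0.52 (SE 0.17, adjusted p = 0.708), and Group M vs Group C gave -0.68 and -0.25 by the first and the second probe.

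Cyp4a8, a fatty acid hydroxylase, was measured on all arrays by its first probe, at 4.02 ± 0.03, 3.76 ± 0.13 and 3.83 ± 0.15, with a difference of -0.26 (SE 0.10, adjusted p = 0.16) in Group M vs Group C. The second probe lies 869 bases away and was above background in 3 rats of Group C, in none of Group M and in all 3 of D9 to D11. It was at -5.48, -8.44, -6.01 and -7.26 in Group C, at -8.93 to -8.26 in Group M and at -5.52, -4.70 and -6.83 in D9 to D11, with D12 at -8.53. Its signal was at least 1.87-fold higher in Group C than in Group M and at least 4.06-fold higher in Group D than in Group M, with an adjusted p of 0.132 and 0.0831 by limma. Cyp2c23 had a like gap, with levels of -4.70, -5.66 and -5.19 in C1 to C3 and none above background in C4 or in Group M. In Group D it was above background in D11 and D12, at -5.58 and -6.01. Its signal was at least 3.17-fold higher in Group C than in Group M (adjusted p = 0.13 by limma).

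**Figure D4:**
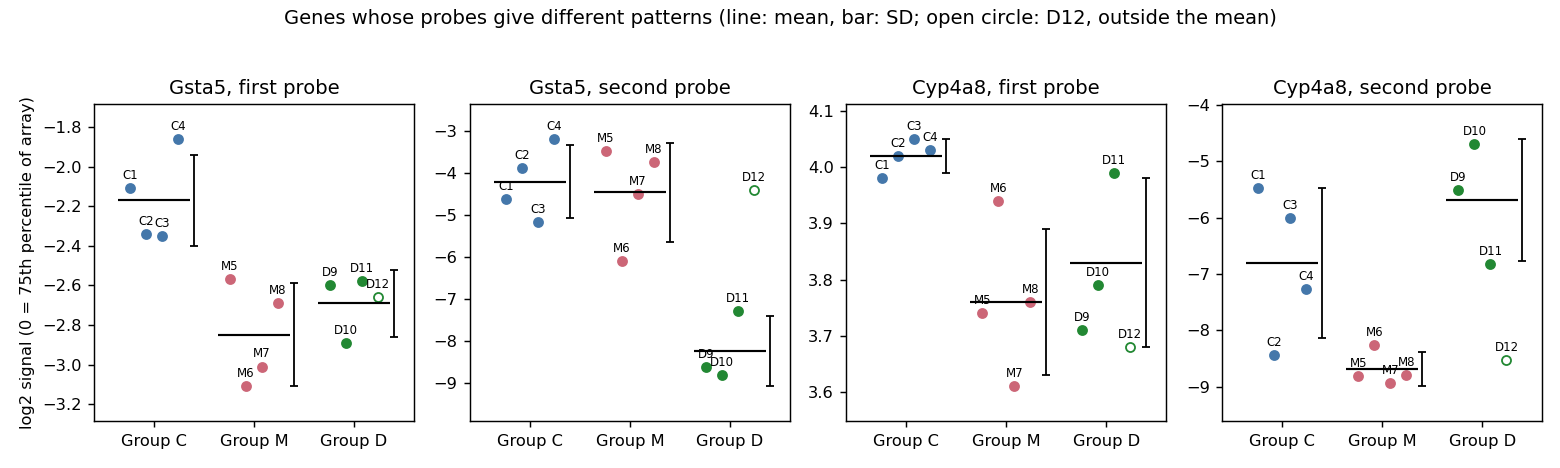
Log2 signal (vertical axes, 0 is the 75th percentile of the array) by rat for both probes of Gsta5 and of Cyp4a8 in Groups C, M and D, with group mean (line) and SD (bar) and D12 as an open circle outside the mean. D9 to D11 drop to background for the second probe of Gsta5 alone, and Group M sits at background for the second probe of Cyp4a8.

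In Group D vs Group C, which asks how far treated rats differed from rats that were never separated, 0 of 127 probes were called by limma, against 0.00659% of all probes. At the unadjusted threshold 2 members were higher and 3 lower, against 2.98% and 2.98% of all probes, and 3 of these 5 (Cyp1a2, Cyp2a1 and Cyp2j10) were at background on all arrays. The others are both probes of Gsta5. The methods' test took 1 probe as lower, the second of Gsta5, and 0 as higher, against 0.171% and 0.198% of all probes. Over the members measured on every array the median difference was 0.00 in phase I and 0.01 in phase II, beside -0.01 over all such probes, and Sult1a1 at 0.54 (SE 0.44) was the highest of them and Cyp3a18 the lowest.

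Genes that work with these enzymes were described by fixed lists. Of 13 regulators, 4 were lower in Group M than in Group C at the unadjusted threshold (Nr1i2, Nr1i3, Ppara and Vdr) and Ahr was higher. Ppara, a receptor for fatty acids, differed by -1.53 (SE 0.36, adjusted p = 0.0966), Nr1i3 by -1.47 (SE 0.65) and Nr1i2 by -0.74 (SE 0.33), whereas Ahr was at 0.68 (SE 0.21). The target genes of AHR in the CYP1 family were at background. Ahrr and Tiparp, of the same list, were measured on all arrays and differed by -0.26 (SE 0.25) and 0.12 (SE 0.11). Of 21 measured electron donors, hydrolases and other phase I partners, 9 were lower and 0 higher. Por, the reductase that feeds all microsomal P450, differed by 0.01 (SE 0.14). Aldh1a1, which oxidises retinal, passed the test across all probes and fell by 1.72 on the log2 scale (SE 0.25, adjusted p = 0.0421 by limma), to 1.08 ± 0.59 from 2.80 ± 0.12. This call was lost with all 12 arrays (adjusted p = 0.109), within the slide of Groups C and M (0.0988), with the replicate block (0.154) and without any 1 rat other than M6 (0.0556 to 0.155). Its log2 difference stayed between -1.94 and -1.53 throughout. It was the only gene of these lists to pass, in any of the 3 comparisons. Of 11 genes that supply cosubstrates 3 were lower, of 7 other conjugating enzymes 2 and of 8 efflux transporters 1, with 0 higher. Over all probes 12.6% were lower at this threshold, and the count of the transporters is near that share. In Group D vs Group M, 3 regulators, 7 of the phase I partners, 4 of the cosubstrate genes, 2 of the other conjugating enzymes and 2 of the transporters were higher, and 1 gene, Aldh3a1, was lower. These counts are at the same unadjusted threshold, where 11.3% of all probes were higher and 10.3% lower.

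Markers of the cells of the colon were set beside the members, and none of them was called by limma in any comparison. At the unadjusted threshold, 12.6% of all probes were lower and 10% higher in Group M than in Group C, and 11.3% were higher and 10.3% lower in Group D than in Group M. Of 10 measured markers of absorptive colonocytes, 2 were lower in Group M than in Group C and 6 higher in Group D than in Group M at the unadjusted threshold, and their median log2 differences were -0.53 and 0.96. Their summed level was 68.6 to 147 in Group C, 81.6 to 128 in Group M and 105 to 167 in D9 to D11 and 60.7 in D12, in units of the 75th percentile of the array, and none of the 10 was at background on all arrays. The 12 markers of epithelium in general had median differences of 0.10 and 0.08, and summed levels of 317 to 388, 324 to 475 and 345 to 426. Of these 12, 3 (Krt18, Krt19 and Krt20) were higher in Group M than in Group C at the unadjusted threshold and 0 lower. Between Groups D and M, 0 of them were past it. Of 3 B cell markers (Cd79b, Ms4a1 and Blk) the summed level was 2.33 in C2, 3.48, 1.87 and 2.44 in M5, M7 and M8, and 5.45 in D12, but 0.129 to 0.172 in C1, C3 and C4, 0.177 in M6 and 0.0783 to 0.323 in D9 to D11. The 6 T cell markers gave 4.89 in C2, 2.91 to 4.28 in M5, M7 and M8, 9.22 in D12 and 0.563 to 1.11 in the other 7 rats. None of these B and T cell markers was at background on all arrays. Of 7 measured macrophage markers, 3 were higher in Group M than in Group C and 7 lower in Group D than in Group M, and of 5 neutrophil markers 3 and 2. Between Groups M and C, 0 of 8 goblet cell, 0 of 7 fibroblast, 0 of 9 squamous, 0 of 10 hepatocyte and 0 of 5 adipocyte markers were past the threshold, against 1 of 8 of smooth muscle (higher), 3 of 10 of enteric neurons and glia (higher) and 1 of 9 of pancreatic acinar cells (lower). Between Groups D and M, 4 of the neuron and glia markers were higher and 3 lower, 2 of smooth muscle were higher, 1 of fibroblasts was lower and 0 of goblet cells and squamous epithelium were past the threshold. The hepatocyte list had 2 each way, the acinar list 1 each way and the adipocyte list 1 lower.

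The medians of the members, rat by rat, ran beside those of the markers. Taken as the median over the probes measured on every array, relative to the mean of Group C, phase I was at 0.06, -0.21, -0.09 and 0.21 in C1 to C4, at -0.51, -0.06, -0.96 and -0.52 in M5 to M8, at -0.17, 0.14 and 0.02 in D9 to D11 and at -0.58 in D12. Phase II was at 0.05, -0.30, 0.09 and 0.13, at -0.44, -0.09, -0.78 and -0.39, at 0.05, 0.04 and 0.05 and at -0.62. The rats with the lowest medians, M5, M7, M8 and D12 and to a lesser degree C2, are those with the high level of lymphocyte markers. The part of cell makeup in the differences of the members was not tested.

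**Figure D5:**
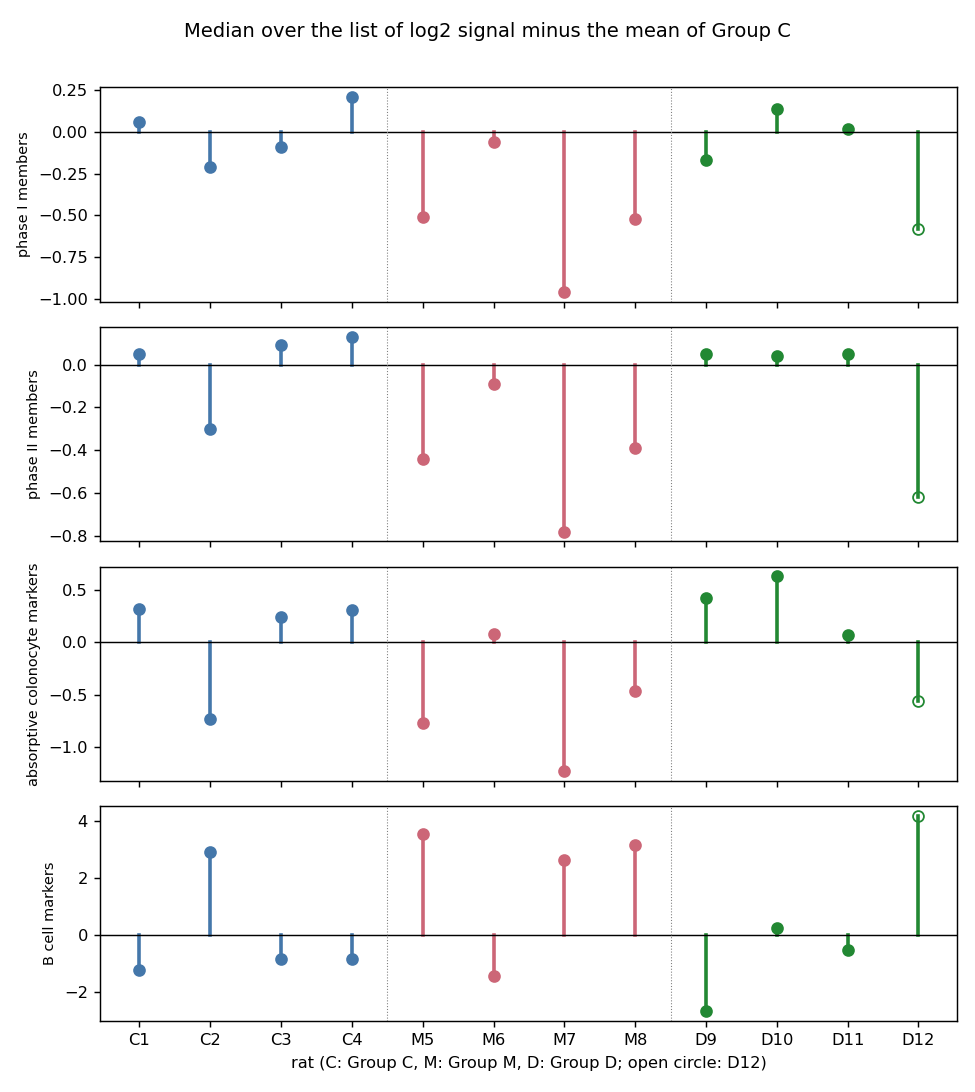
Median over each list of the log2 signal minus the mean of Group C (vertical axes) for the 30 phase I probes and 36 phase II probes above background on every array, for 10 markers of absorptive colonocytes and for 3 markers of B cells, in each of the 12 rats. C2, M5, M7, M8 and D12 are the lowest in the panels of members and of colonocytes, and the highest in the panel of B cells.

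The calls depended on rat M6. Without it, limma called 15 member probes between Groups M and C and 14 between Groups D and M, where 5.84% and 6.51% of all probes were called. Among them were Sult1a1 (-1.89 and 2.43), Cyp4f5 (-1.95 and 1.76), Gstm7 (-1.33 and 1.45), Cyp3a62 (-1.33 and 1.48) and Cyp2s1 (1.78 and -2.12 by its brightest probe), each in both comparisons. With array weights estimated from the data, which gave M6 a weight of 0.365 and M8 one of 4.71, 14 and 15 member probes were called, against 7% and 6.94% of all probes. The 15 included Cyp2e1, which was at background on all arrays and stood highest in M8 within Group M. With D12 included, the members higher in Group D than in Group M at the unadjusted threshold numbered 12 in place of 28, against 5.86% of all probes.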

How the data were processed

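Colonic RNA of 12 rats was measured on 1-colour 60-mer arrays. Per the file headers, the deposited intensity of each spot had been background-subtracted and detrended by the authors' scanner software on a linear scale, without normalization between arrays. The authors' matrix of log2 values is quantile normalized and served as an alternative. Other deposited columns used were the marks for spots above background, saturated or outlying, and the positions and bases of probes.

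Here log2 intensity was set relative to the 75th percentile of each array, control and outlier spots (277 to 521 per array) were left out and spots of a probe averaged. Groups were compared with limma 3.58.1 (R 4.3.3; lmFit and eBayes, 3 groups in 1 model, 11 arrays), with Benjamini-Hochberg adjustment over 30367 probes. A call needed a 2-fold difference and an adjusted p no higher than 0.05. The methods' test, analysis of variance and Tukey without adjustment, was computed on the same values; their software was not rerun. Where a probe was above background on no array of the lower group, the fold is a lower bound against the dimmest measurable signal. The procedure was tested on simulated data. Python 3.11.15 with matplotlib 3.10.9 drew the figures.

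The members, the gene lists and the rule for named genes were chosen with earlier results of these data known. Named were members past either test, the 5 largest differences each way per comparison among genes measured in the higher group, the brightest gene of each family and a list of 21 enzymes. A gene is named by its brightest probe, with other probes beside it. Cyp2c23, Cyp2d1, Cyp2d4, Cyp4f17, Cyp4v3, Gsta2, Gsta3, Gstm2, Gstm5 and Sult1c2a fall outside this rule and were named after their values were seen. 1 gene of the lists is not reported here. Gene names are those of the files. Of 127 member probes, 109 matched RefSeq (GRCr8) by accession, 8 of them under another symbol. Alternatives were all 12 arrays, other background corrections, scalings and filters, a replicate block, array weights and leaving out each rat. Arrays give no counts, so the number of rats limits the precision.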

Additional observations from a re-analysis of the deposited data

Results flagged for a closer look

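Of 41 named probes tested in 3 groups each, with D12 in Group D, 9 of 123 sets of 4 rats held a rat that stood apart from the other 3 by Dixon's criterion, where chance alone gives about 5%. D12 stood apart for Sult1c2, at -3.34 against -2.09 to -1.97 in D9 to D11, for Cyp2s1, at -0.23 against -3.52 to -3.04, and for Cyp2d2, at -8.56 and not above background against -6.31 to -6.04. C2 stood apart from the rest of Group C for Cyp4b1, at -2.56 against -1.38 to -1.16, and for Cyp2d5, at 2.44 against 3.26 to 3.36. The other 4 were Gstp1 in D9, at 3.02 against 2.67 to 2.72, Gstm4 in D11, at -0.82 against -1.47 to -1.44, Cyp3a9 in C3, at 3.51 against 3.91 to 3.93, and Cyp2e1 in M8, at -6.86 against -8.72 to -8.44, which was at background on all 12 arrays.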

How the results depend on the processing

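Among the 41 named probes, no difference with an unadjusted p by limma under the threshold changed its sign under any of the alternatives. The quantile scaling, the shift to the median and the authors' matrix left all counts and medians of the members within 1.5 times or within the spread between rats. Leaving out each rat in turn moved the members called by limma in Group M vs Group C over 0 to 15 and in Group D vs Group M over 0 to 14, the highest without M6 and 0 without any other rat, and left 0 to 0 in Group D vs Group C. The count lower in Group M at the unadjusted threshold ran over 23 to 46, and that higher in Group D over Group M over 19 to 45. The medians of phase I ran over -0.09 to 0.02, 0.04 to 0.14 and -0.05 to 0.03 in Group M vs Group C, Group D vs Group M and Group D vs Group C, and those of phase II over -0.31 to -0.15, 0.12 to 0.26 and -0.07 to 0.09. Array weights gave 14 and 15 called members in Group M vs Group C and Group D vs Group M, and 46 higher in Group D over Group M at the unadjusted threshold. All 12 arrays gave 12 for the latter count and a median of -0.12 for phase II in Group D vs Group C. In Group D vs Group M all 12 arrays gave medians of 0.03 for phase I and 0.07 for phase II, both below the ranges above. In Group D vs Group M, the normexp correction called 1 member, Sult1a1, and the filter on background called 1, the second probe of Gsta5 (adjusted p = 0.0406), with fewer probes tested. The methods' test took 3, 7 and 1 members. With the filter the median of phase I was -0.48 and 0.39 in Group M vs Group C and Group D vs Group M. Over members above background on every array it was -0.50 and 0.39, and that of phase II -0.40 in Group M vs Group C. Over all probes, limma called 50, 39 and 2 in the 3 comparisons, but 1772 and 1978 without M6 and 2125 and 2107 with array weights in Group M vs Group C and Group D vs Group M, and only 10 and 4 with all 12 arrays and 1 and 1 with the replicate block. Group C and Group M alone, within their slide, gave 30 lower members in place of 33.

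Groups share replicate numbers, but same-numbered rats did not deviate together (correlations of -0.72 to 0.58 over probes measured on every array), so the numbers are not taken as pairs. With the replicate block 0 members were called in any comparison, and the counts at the unadjusted threshold were 26 lower in Group M and 24 higher in Group D over Group M. Only 3 or 4 rats a group, background for 36 of 127 probes, and the second slide for Group D limit all comparisons.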
